A study of Mus musculus with 12 samples.

Results

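The cytosolic ribosomal protein genes are 81 of the 20792 genes listed for each library of hematopoietic stem and progenitor cells (HSPCs). They were chosen by symbol: Rplp0, Rplp1, Rplp2, Rpsa and Fau, and every Rpl or Rps gene with a number and at most one letter a, l or x. Of these, 46 encode proteins of the large subunit, 31 encode proteins of the small subunit, and 4 (Rpl3l, Rpl6l, Rps4l and Rps27l) are paralogs or copies of a member. HSPCs were sorted from bone marrow of WT mice by c-kit and Sca-1 among cells without lineage markers and CD127, and 4 groups of 3 libraries were compared. The normal diet (ND) was chow with 0.5% NaCl. The high salt diet (HSD) combined chow holding 8% NaCl with drinking water holding 1% NaCl and was given for 8 weeks from 6 weeks of age. ND and HSD mice had no ICH. ND ICHD7 and HSD ICHD7 mice had an intracerebral hemorrhage (ICH), made by injecting the animal's own blood into the brain after the same diets, and cells were taken on day 7. All mice were returned to ND after ICH, so HSD ICHD7 denotes HSD before the hemorrhage only. HSD ICHD7 mice thus differ from HSD mice by ICH and by the return to ND, and these cannot be told apart. Each ND and HSD library was pooled from 3 animals, and the number for the ICHD7 libraries is not given in the sources used here. The comparisons asked whether HSD alters HSPCs without ICH and after it.

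A cytosolic ribosome consists of a large and a small subunit, each made of ribosomal RNA and of proteins that are needed in nearly equal numbers. Messages of these proteins start with a C followed by a run of pyrimidines, the terminal oligopyrimidine (TOP) tract, through which mTOR signaling and Larp1 control their translation together. Hematopoietic stem cells keep protein synthesis low compared with their progeny, and loss of a single copy of several ribosomal protein genes causes Diamond-Blackfan anemia in humans.

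Promoter windows of RefSeq (GRCm38.p6, 250 bases before and 50 bases from each annotated start) were found for 59 of the 81 genes, in 71 windows. A C at the annotated start followed by at least 4 pyrimidines stood in 14 of the 71 windows (19.7%), against 2.51% of all 32851 windows, and within 5 bases of the start in 43.7% against 18.3%. Shown here are 6 genes with the tract at the annotated start and 3 genes without it, all of which recur in the comparisons, as the coding strand from 10 bases before the start to 20 bases from it, with the tract in capitals.
Rps15a: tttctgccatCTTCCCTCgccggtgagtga
Rps10: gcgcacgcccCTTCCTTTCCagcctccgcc
Rpl38: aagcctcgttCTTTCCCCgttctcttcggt
Rps27: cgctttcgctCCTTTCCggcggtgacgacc
Rplp2: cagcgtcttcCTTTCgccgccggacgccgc
Rps6: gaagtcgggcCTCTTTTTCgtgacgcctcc
Rps3: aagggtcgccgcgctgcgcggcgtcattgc
Rps2: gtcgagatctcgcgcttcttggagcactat
Rps12: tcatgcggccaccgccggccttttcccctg
These windows lie at chr7:118116128-118116157, chr17:27635225-27635254, chr11:114668570-114668599, chr3:90213629-90213658, chr7:141447641-141447670, chr4:86857348-86857377, chr7:99483690-99483719, chr17:24720053-24720082 and chr10:23787190-23787219, in the order printed. A window without capitals says only that the tract does not begin at that annotated start. The motif CCGGAAGT on either strand, the core that ETS factors such as GABP bind, was chosen after the windows had been read. It occurred in 16.9% of the members' windows of 300 bases and in 3.89% of all windows.

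The deposited values were CPM, reads of a gene scaled to the library's total, with TMM scaling, and each library held 8678304 to 27491973 reads in the listed genes. The libraries after ICH had 2 to 29 genes at 0, against 1393 to 1755 in libraries without ICH, so ICH and this difference between libraries cannot be told apart. The sorted cells carried all 14 HSPC marker genes in every library, with Kit at 329 to 487 CPM, whereas Ly6a, which encodes Sca-1, was at 2.42 to 6.72 CPM. HSD ICHD7 replicate 3 stood apart, with 27491973 reads, a summed HSPC marker level of 1493 CPM against 2088 to 2502 CPM elsewhere, and Nkg7, a gene of T and NK cells, at 65.5 CPM against 23.0 to 36.4 CPM. Only 2 of the 7 T and NK markers were listed. The other, Klrb1c, was not raised in HSD ICHD7 replicate 3, at 0.686 CPM against 0.211 to 2.69 CPM elsewhere. Macrophage markers were high in 2 libraries, at a sum of 500.1 CPM for ND replicate 1 and of 903 CPM for HSD replicate 2, and their sum elsewhere was 73.0 to 186 CPM.

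Per kilobase of the main transcript, the acidic stalk protein gene Rplp1 had the highest level in ND HSPCs, at 1408 ± 119 CPM per kilobase (SD, n = 3). Rpl26 followed at 1385 ± 75.1, and these levels did not differ beyond their spread. When length was taken over all annotated exons, Rplp1 remained the highest, followed by Rpl36 and Rps23, so the order below Rplp1 depends on the transcript model. Under both lengths the lowest levels were those of 3 paralogs: Rps27l at 36.8 ± 3.28, Rps4l at 4.26 ± 0.742 and Rpl3l at 0.288 ± 0.137 CPM per kilobase. Rps27l, a p53-induced paralog of Rps27, stood at 5.36% ± 0.136 (SD, n = 3) of Rps27 per kilobase in ND, 6.25% ± 1.19 in HSD, 4.24% ± 1.42 in ND ICHD7 and 6.56% ± 1.26 in HSD ICHD7. Rps4l, a transcribed processed copy, was at 0.947% to 1.04% of the X-linked Rps4x as group means. Rpl6l, which is annotated as a processed pseudogene, was at 9.76% to 14.1% of Rpl6, with 114 CPM in HSD ICHD7 replicate 3 and 39.1 to 56.2 CPM in all others. Reads of such copies may come from the parent gene. Rpl10l and Rpl39l were not among the listed genes.

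The 81 genes together held 3.43% to 3.63% of the summed CPM in ND libraries and 3.44% to 3.53% in HSD libraries. In ND ICHD7 replicates 1, 2 and 3 the share was 3.51%, 4.50% and 3.95%, and in HSD ICHD7 replicates 1, 2 and 3 it was 3.97%, 3.77% and 4.55%. In this share all 3 HSD ICHD7 libraries lay above every ND and HSD library, and ND ICHD7 replicate 1 lay among the latter. Expressed in CPM, the sum was 33013 ± 2018 in ND, 32840 ± 1186 in HSD, 35856 ± 4613 in ND ICHD7 and 38194 ± 6038 in HSD ICHD7 (SD, n = 3). In CPM the separation was lost, as HSD ICHD7 replicates 1 and 2 (35152 and 34281) lay below ND replicate 1 (35342). In bulk RNA, a different number of cells of one type and a different amount of RNA per cell cannot be told apart.

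Large subunit genes made up more of the sum than small subunit genes in every library. Their ratio was 1.433 to 1.447 in ND, 1.446 to 1.498 in HSD, 1.454 to 1.534 in ND ICHD7 and 1.498 to 1.565 in HSD ICHD7. ND libraries were the least variable in this ratio (SD 0.00758). The 3 ND ICHD7 and the 3 HSD ICHD7 ratios were each above all ND ratios. HSD replicates 1 and 2 were above them too (1.480 and 1.498), and HSD replicate 3 was not (1.446).

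**Figure D1:**
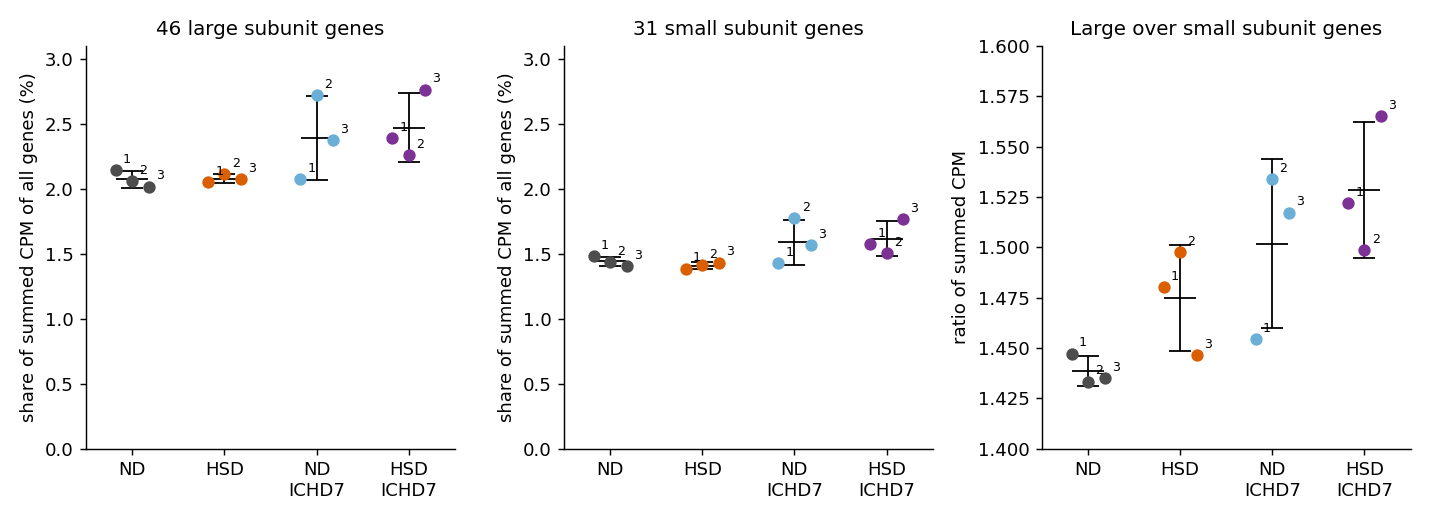
Share of the summed CPM of all listed genes held by 46 large (left) and 31 small (middle) subunit genes, in percent, and the ratio of their summed CPM (right, axis from 1.4 to 1.6). Each point is a library with its replicate number, and black bars are the mean and SD of 3 libraries. ND ICHD7 replicate 2 and HSD ICHD7 replicate 3 are the highest in each panel.

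ND ICHD7 replicate 2 and HSD ICHD7 replicate 3 each stood above the other libraries of their group in most ribosomal protein genes, though not in all of the same genes. Over the 77 genes without the 4 paralogs and copies, ND ICHD7 replicate 2 was above the mean of its other libraries in 61 genes (median log2 difference 0.22) and HSD ICHD7 replicate 3 in 73 genes (0.35). Across these genes the differences of both libraries had a Pearson correlation of 0.46 and a Spearman correlation of 0.61, while over 20393 genes they had 0.08 and 0.11. The points share the sum of reads of their library, and shorter transcripts had larger differences in both (Spearman −0.37 and −0.29 with length). Summed processed copies of ribosomal protein genes moved alike, with 5514 and 6149 CPM in the 2 libraries and 3463 to 4215 CPM in the other 10.

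Several genes were far higher in these libraries than in all others. Rpl37, a large subunit protein gene, had 814 CPM in ND ICHD7 replicate 2 and 647 CPM in HSD ICHD7 replicate 3, and 306 to 399 CPM in the other 10 libraries. Rplp1 had 1185 and 1121 CPM in them, and 566 to 807 CPM in the rest. Rpl22, whose protein is dispensable for translation but needed for lymphoid development in mice, had 646 and 571 CPM, and 336 to 423 CPM in the rest. Rps27 was high in ND ICHD7 replicate 2 alone, with 563 CPM against 209 to 274 CPM in the other 11 libraries. Fau, which encodes a ubiquitin-like protein fused to the small subunit protein eS30, went the other way in that library, with 166 CPM against 235 to 299 CPM elsewhere. Rpl37a had 49.0 CPM in ND ICHD7 replicate 1 and 57.5 CPM in HSD ICHD7 replicate 3, against 73.8 to 127 CPM. Rpl37 and Rpl37a were chosen after their values had been seen. The part of depth, marker genes and these 2 libraries in the ICH results was not tested beyond leaving the libraries out.

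**Figure D2:**
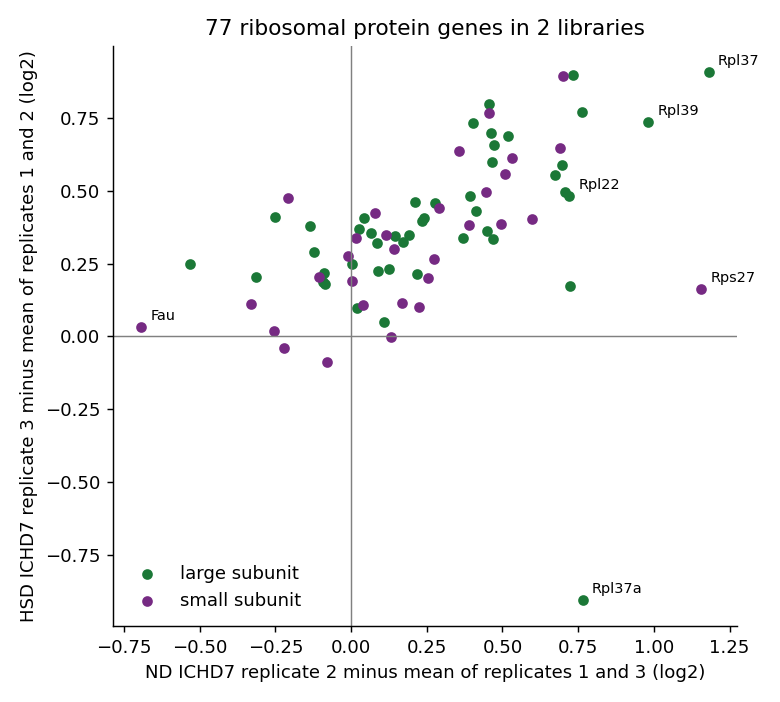
Each point is 1 of 77 ribosomal protein genes, with the log2 difference of ND ICHD7 replicate 2 from the mean of its 2 other libraries on the horizontal axis and that of HSD ICHD7 replicate 3 on the vertical axis. Rpl37 is highest in both, at 1.18 and 0.91, Rps27 is high in the first alone, Fau is lowest in the first at −0.69, and Rpl37a is lowest in the second at −0.91.

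Without ICH, the ribosomal protein genes of HSD HSPCs stood at nearly the same level as those of ND HSPCs. Of 80 genes tested, 41 had a higher and 39 a lower mean, and the median log2 fold change was 0.003, beside 0.02 over 16787 genes. At an unadjusted p under 0.05 in limma, 1 gene was higher and 3 were lower (1 and 8 with RLE scaling), where 3.65% of all genes were higher and 3.28% lower. None passed an adjusted p under 0.05 with limma, edgeR or DESeq2, where 0.0774% of all genes did with limma. With limma the members' counts lie near or below the background. With RLE scaling, edgeR and DESeq2, 8 of 80 members each were lower at an unadjusted p under 0.05, beside 3.88%, 3.82% and 2.70% of all genes, and 1, 1 and 2 members were higher. How many members were lower thus depends on the scaling and the tool. The members' median was −0.01 with RLE scaling and, to 2 decimals, 0.00 with plain CPM, so no direction was held across scalings.

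The gene with the smallest p was Rplp1, part of the stalk that recruits elongation factors. It had 767, 649 and 692 CPM in ND replicates 1, 2 and 3 and 629, 566 and 572 CPM in HSD replicates 1, 2 and 3. All HSD values were below all ND values, and the log2 fold change was −0.25 (SE 0.0861, adjusted p = 0.583, limma), or −0.19 without ND replicate 1. Rps15a, a small subunit protein gene with a TOP tract at its start, had 229, 212 and 209 CPM in ND and 186, 168 and 204 CPM in HSD. These groups did not overlap either, and the difference was −0.22 on the log2 scale (SE 0.0828, limma adjusted p = 0.619). Rpl10, whose protein completes the large subunit late in assembly, went the other way with 361, 336 and 325 CPM in ND and 367, 383 and 408 CPM in HSD (log2 fold change 0.18, SE 0.0753, adjusted p = 0.679, limma). Without both ND replicate 1 and HSD replicate 2, the libraries high in macrophage genes, the unadjusted threshold was passed by 3 higher and 2 lower genes. Of all genes, 6.64% were higher and 4.40% lower in that fit.

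After ICH, most ribosomal protein genes had a higher mean in HSD ICHD7 than in ND ICHD7 HSPCs, and how many depended on single libraries. Of 81 genes tested, 63 had a higher mean, with a median log2 fold change of 0.11 beside −0.03 over 20079 genes. Without HSD ICHD7 replicate 3 the median was −0.001 and 40 genes had a higher mean, and without ND ICHD7 replicate 1 they were 0.02 and 45. Leaving out any other single library gave medians of 0.12 to 0.19 and 61 to 76 genes. Leaving out both ND ICHD7 replicate 2 and HSD ICHD7 replicate 3 gave 0.06 and 64. At an unadjusted p under 0.05, 2 genes were higher and none was lower by limma, where 5.42% of all genes were higher and 10.2% lower. None passed an adjusted p under 0.05 by limma (0% of all genes), edgeR or DESeq2. DESeq2 gave 5 genes at an unadjusted p under 0.05, all higher, beside 6.30% of all genes higher.

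Both genes past the unadjusted threshold lost it without HSD ICHD7 replicate 3. Rps12, a small subunit protein gene, had 232, 215 and 267 CPM in ND ICHD7 replicates 1, 2 and 3 and 286, 274 and 390 CPM in HSD ICHD7. The groups did not overlap, and the log2 fold change was 0.40 (SE 0.154, adjusted p = 0.285, limma), or 0.24 without HSD ICHD7 replicate 3. Rpl30, a large subunit protein gene, had 149, 134 and 145 CPM in ND ICHD7 and 173, 150.2 and 210.3 CPM in HSD ICHD7. Its groups were also apart (log2 fold change 0.31, SE 0.134, adjusted p = 0.312, limma), and it kept an unadjusted p under 0.05 in 1 of the 6 fits without a library. The count of genes past p was 0 without ND ICHD7 replicate 2 or HSD ICHD7 replicate 3. It was 1 lower gene without ND ICHD7 replicate 1 and 1 higher gene without HSD ICHD7 replicate 1. Without ND ICHD7 replicate 3 there were 4 higher genes, and without HSD ICHD7 replicate 2 there were 10 higher and 1 lower. Of all genes, 3.23% to 6.31% were higher and 6.11% to 13.3% lower in these fits.

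**Figure D3:**
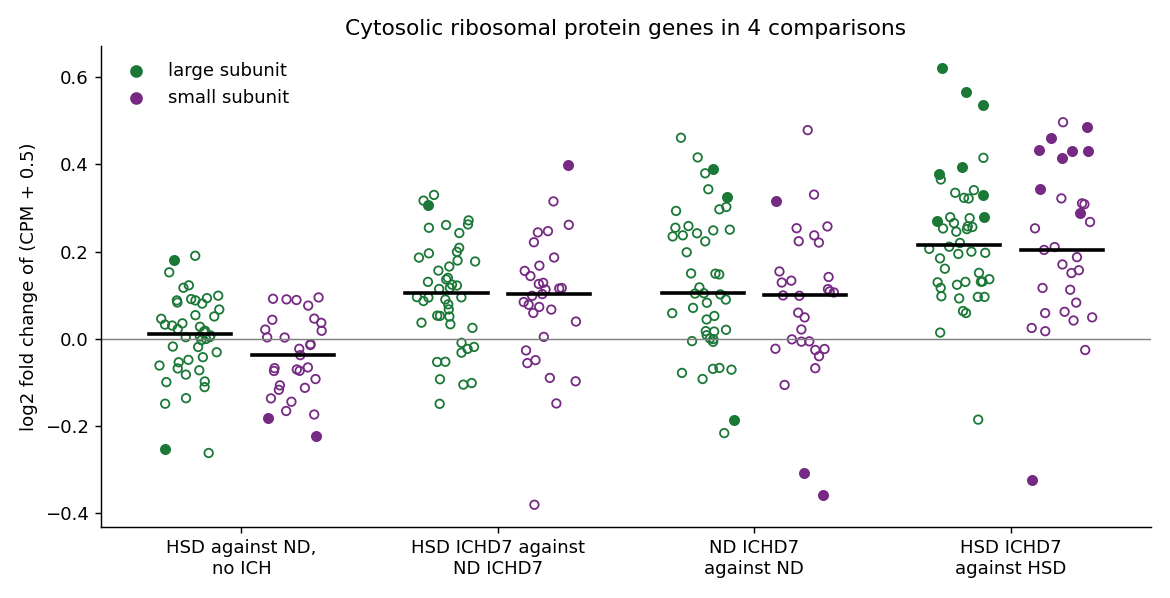
Log2 fold changes of CPM + 0.5 (vertical axis) of large and small subunit genes in 4 comparisons, with 1 point per gene and the 4 paralogs and copies left out. Filled symbols mark genes past an unadjusted p of 0.05 in limma, and the medians (black bars) lie at 0.01 and −0.04 for HSD against ND without ICH and at 0.22 and 0.20 for HSD ICHD7 against HSD.

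In ND HSPCs, the median was slightly higher after ICH, while Rps3 fell. Of 81 genes tested, 59 had a higher mean in ND ICHD7 than in ND, with a median log2 fold change of 0.10 beside 0.01 over 19387 genes. At an unadjusted p under 0.05 in limma, 4 were higher and 3 lower (12 and 2 with plain CPM), where 18.1% of all genes were higher and 10.3% lower. An adjusted p under 0.05 was reached by Rpl3l and Rps3, that is by 2 of 81 genes, where 16.7% of all genes reached it. Rpl3l is among the 4 and the 2 only because of its reads after ICH, and without it Rps3 is the single call. DESeq2 put 16 of 81 members past the unadjusted threshold as higher and 2 as lower, beside 16.5% and 6.81% of all genes. Without ND ICHD7 replicate 1, 28 higher and 3 lower genes of 80 passed that p, beside 8.72% and 11.5% of all genes. Without ND ICHD7 replicate 2 there were 1 and 2, beside 7.28% and 10.7%. The members' count of higher genes thus lay below or above the background depending on the library left out and the tool. The counts were 2 and 2 without ND replicate 2, beside 17.0% and 6.56% of all genes. Without ND replicate 3 they were 1 and 3, beside 16.7% and 7.24%.

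Rps3, which encodes a protein at the entry of the mRNA channel that also acts in DNA repair, fell after ICH. It had 969, 1000 and 916 CPM in ND replicates 1, 2 and 3 and 730, 811 and 712 CPM in ND ICHD7, without overlap. The log2 fold change was −0.36 (SE 0.104, adjusted p = 0.0405, limma), and leaving out 1 library gave −0.41 to −0.32 with adjusted p values from 0.0232 to 0.191. The call was lost in 5 of these 6 fits, without any ND library and without ND ICHD7 replicate 1 or 3. Rps2, a neighbour of Rps3 in the small subunit, had 549, 495 and 496 CPM in ND and 421, 355 and 474 CPM in ND ICHD7 (log2 fold change −0.31, SE 0.116, adjusted p = 0.108, limma). Rpl30 had 171, 164 and 151 CPM in ND and 149, 134 and 145 CPM in ND ICHD7, without overlap (log2 fold change −0.19, adjusted p = 0.167, limma).

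Rpl3l, a paralog of Rpl3 known from striated muscle, was at the limit of detection. It had 6, 3 and 9 reads in ND replicates 1, 2 and 3 and 16, 24 and 11 reads in ND ICHD7 (log2 fold change 0.84, SE 0.218, adjusted p = 0.0247, limma). It passed the filter on reads only through the libraries after ICH, so that it had to differ in order to be tested, and it was not tested in the comparisons without ICH or within HSD. The call was lost without ND replicate 1 or 2 (adjusted p up to 0.103) and with DESeq2 (0.0960). HSD replicate 1 had 3 reads and the other HSD libraries had none, and HSD ICHD7 had 10, 13 and 7 reads. Rpl17, Rps10 and Rpl38 had log2 fold changes of 0.39, 0.31 and 0.33 with adjusted p values of 0.0915, 0.121 and 0.135 (limma). Within these 6 libraries each was highest in ND ICHD7 replicate 2, and Rpl17 had 259, 399.8 and 327 CPM in ND ICHD7 against 252, 254 and 235 CPM in ND.

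In HSD HSPCs, nearly all ribosomal protein genes had a higher mean after ICH and the return to ND, which cannot be told apart here. Of 80 genes tested, 77 had a higher mean in HSD ICHD7 than in HSD, with a median log2 fold change of 0.21 beside −0.005 over 18082 genes, of which 49.3% had a higher mean. At an unadjusted p under 0.05, 17 were higher and 1 was lower by limma, where 11.8% of all genes were higher and 9.73% lower. An adjusted p under 0.05 was reached by 1 gene of 80, Rps15a, where 6.58% of all genes reached it. Without HSD ICHD7 replicate 3, the median was 0.09 and 69 genes had a higher mean. There 14 higher genes and 1 lower gene passed the unadjusted threshold, beside 6.20% and 9.39% of all genes. The count of genes higher at that p was 7 without HSD replicate 1, 6 without HSD replicate 2 and 12 without HSD replicate 3. These were 8.75%, 7.5% and 15% of members, beside 9.64%, 10.7% and 10.2% of all genes. Without HSD ICHD7 replicate 2 the count was 34 (42.5% beside 7.39%). The members' share thus lay below that of all genes without HSD replicate 1 or 2. In HSD ICHD7 replicate 3 the sum of the HSPC markers was lowest, though Cd48 among them was highest, at 43.2 CPM. Nkg7 was highest there and Klrb1c was not. The part of these markers in this result was not tested.

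Rps15a, whose protein lies in the small subunit body, had 186, 168 and 204 CPM in HSD replicates 1, 2 and 3 and 241.1, 241.3 and 259.8 CPM in HSD ICHD7, all above the HSD values. The log2 fold change was 0.42 (SE 0.102, adjusted p = 0.0436, limma), and it was 0.34 to 0.48 without 1 library, with adjusted p values from 0.0660 to 0.171, so the call was lost without any one of the 6 libraries. Rps20, a small subunit head protein gene, had 315, 293 and 328 CPM in HSD and 389, 382 and 503 CPM in HSD ICHD7 (log2 fold change 0.43, SE 0.127, adjusted p = 0.0851, limma). Rps25, which is needed for translation from several viral internal ribosome entry sites, had 156, 160.1 and 196 CPM in HSD and 224, 208 and 289.8 CPM in HSD ICHD7 (0.48, SE 0.144, adjusted p = 0.0888, limma). Rplp1 had 698, 794 and 1121 CPM in HSD ICHD7 against the HSD values of 566 to 629 CPM (0.54, SE 0.172, adjusted p = 0.112, limma), and 0.34 without HSD ICHD7 replicate 3. None of these 4 genes overlapped between the groups, but they were picked by their small p, so this is not separate support. The other 13 higher genes included Rpl39, Rps10, Rpl32, Rpl22, Rpl23a, Rps21, Rps12, Rps13, Rplp2, Rpl31 and Rpl36, and the copy Rpl6l.

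Rps3 was the single lower gene in this comparison. It had 829, 837 and 875 CPM in HSD and 670.2, 647 and 713 CPM in HSD ICHD7, so the groups were apart. Its log2 fold change was −0.32 (SE 0.109, adjusted p = 0.128, limma), and it had also been lower in HSD than in ND (−0.18, SE 0.0795, adjusted p = 0.687, limma). The comparisons share groups, so these values are not independent of each other.

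**Figure D4:**
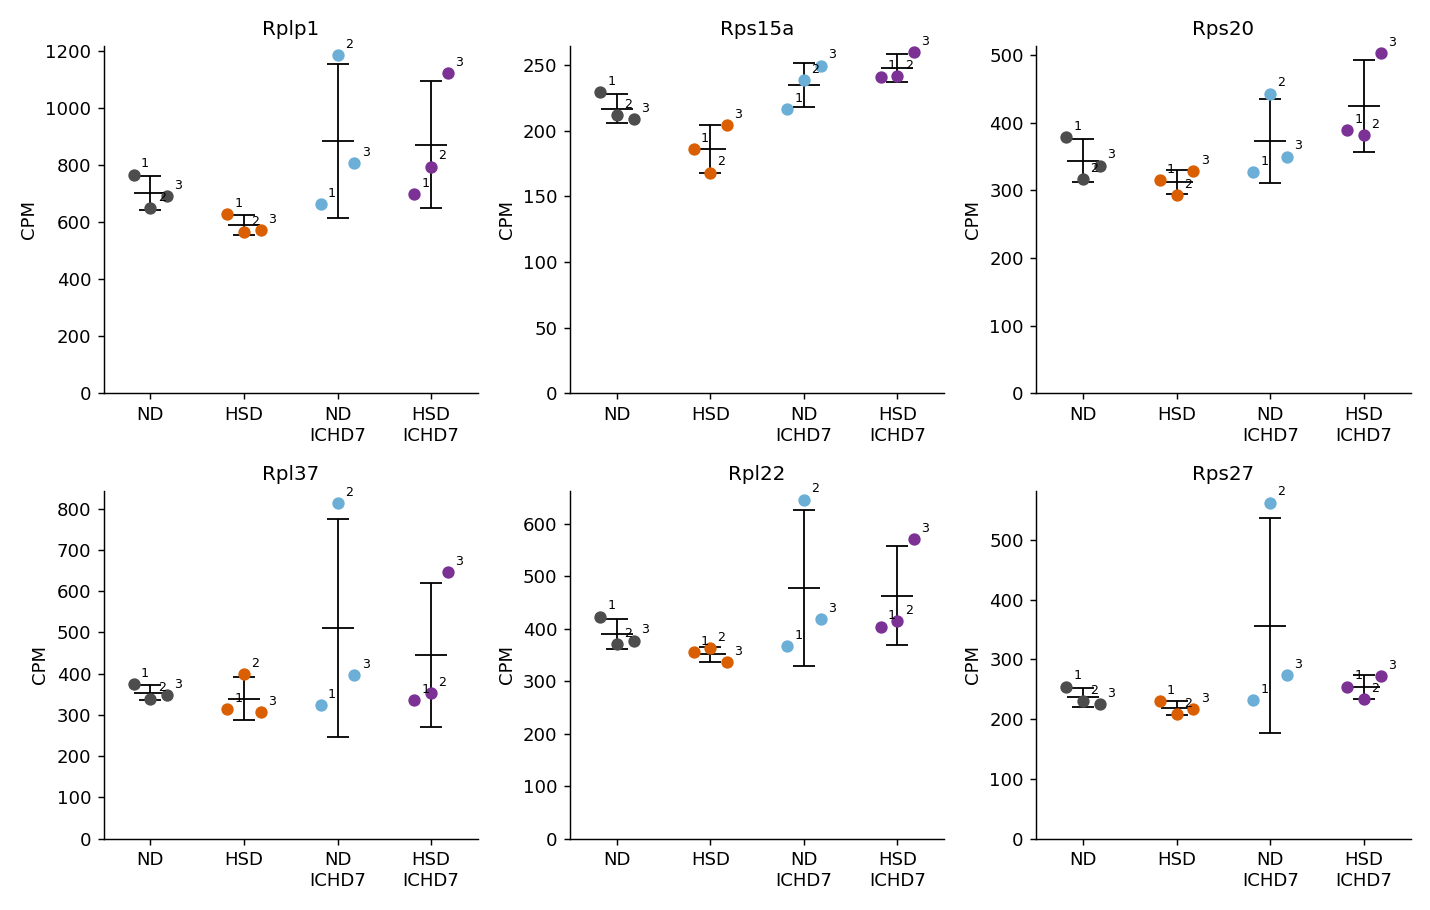
CPM (vertical axes, from 0) of Rplp1, Rps15a, Rps20, Rpl37, Rpl22 and Rps27 in 12 libraries, numbered by replicate, with the mean and SD of each group in black. Rps15a is lower in each HSD library than in all others, while Rplp1, Rpl37, Rpl22 and Rps27 are highest in ND ICHD7 replicate 2.

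The difference between the diet effects after and without ICH was tested in 1 fit of 12 libraries. It cannot tell ICH from the return to ND, which changed the diet of the HSD ICHD7 mice only. Of 81 genes, 67 had a positive difference, with a median of 0.13 on the log2 scale beside −0.03 over 20393 genes. By limma, 6 genes were higher and none was lower at an unadjusted p under 0.05, where 2.22% of all genes were higher and 6.13% lower, and none passed an adjusted p under 0.05 (0% of all genes) by limma, edgeR or DESeq2. By edgeR and DESeq2, 8 genes each were higher at an unadjusted p under 0.05, beside 2.95% and 2.30% of all genes. The 6 genes found with limma were Rps2 (0.39, SE 0.152), Rpl30 (0.41, SE 0.164), Rpl27a (0.34, SE 0.144) and Rps15a (0.30, SE 0.130), followed by Rps13 and Rps12, and their adjusted p values were 0.546 to 0.596. Without HSD ICHD7 replicate 3 the median was −0.001 and 1 gene was left, and no gene was left without ND replicate 1 or without HSD replicate 1. The count was 1 without HSD replicate 2, 2 without ND replicate 2 or ND ICHD7 replicate 1, and 10 without HSD ICHD7 replicate 2. Of all genes, 1.63% to 3.60% were higher at that p in these fits.

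Rps3 carries a small nucleolar RNA gene whose level moved with its own. Rps3 lies at chr7:99477896-99483738 on the minus strand of GRCm38 and holds Snord15a and Snord15b, box C/D guide RNAs for ribosomal RNA modification, in its introns. Snord15b (chr7:99479563-99479707) lies within an exon of a transcript of Rps3 that retains the intron, so that its reads can belong to both genes. Snord15b had 368, 460.0 and 391 CPM in ND, 292, 296 and 303 CPM in HSD, 185, 269.6 and 128 CPM in ND ICHD7, and 73.5, 86.3 and 70.8 CPM in HSD ICHD7. Snord15a, which does not lie within an annotated exon of Rps3, was also lower than in ND in each other group. It had 219 ± 26.4 CPM in ND, 111 ± 16.0 in HSD, 149 ± 76.0 in ND ICHD7 and 58.8 ± 13.2 in HSD ICHD7 (SD, n = 3). From ND, the mean of Rps3 was lower by 115 CPM in HSD, 211 CPM in ND ICHD7 and 285 CPM in HSD ICHD7, and that of Snord15b by 109, 212 and 330 CPM. Rps3 minus Snord15b was 555 ± 40.2 CPM in ND, 549.8 ± 19.1 in HSD, 557 ± 23.9 in ND ICHD7 and 600.0 ± 40.7 in HSD ICHD7 (SD, n = 3), and these ranges overlapped between ND and each other group. How the authors' counting treats reads that overlap both genes is not given in the sources used here, and the sharing of reads was not tested. Snord15b and the other hosted genes named here were chosen after their values had been seen.

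**Figure D5:**
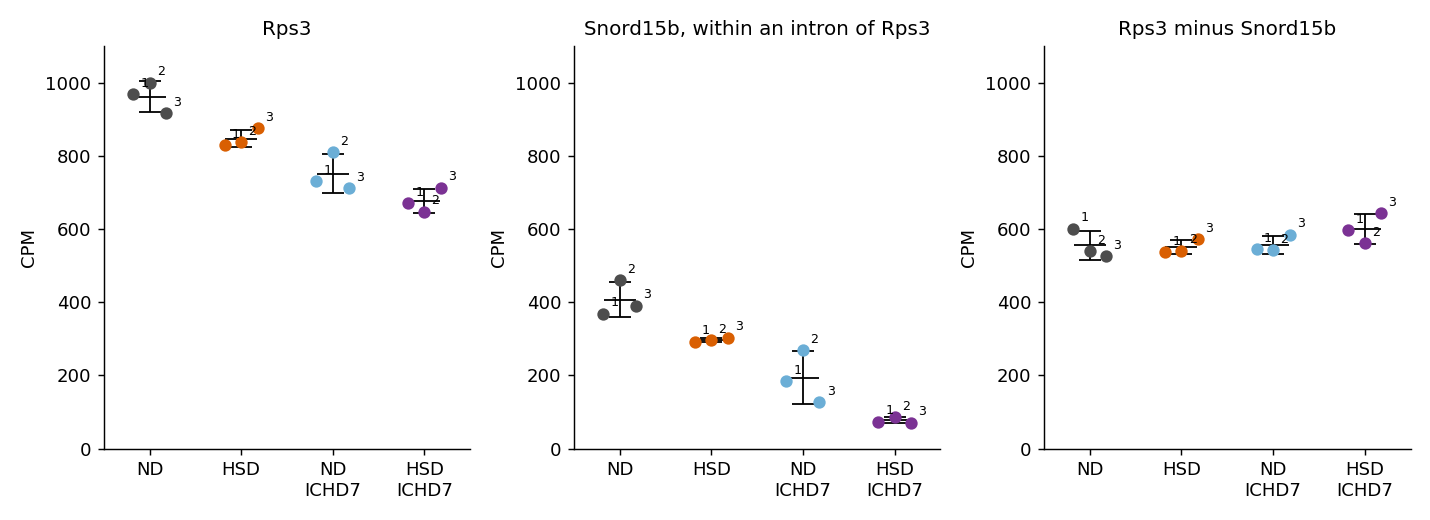
CPM (vertical axes, from 0) of Rps3, of Snord15b and of Rps3 minus Snord15b in 12 libraries, with replicate numbers and the mean and SD of each group. Rps3 and Snord15b decline from ND to HSD ICHD7, and the difference stays between 525 and 642 CPM.

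The ribosomal protein genes host 56 small nucleolar RNA genes in 29 members, 54 of which were listed. The 8 of them with a mean of at least 10 CPM in ND had a negative log2 fold change in all 4 comparisons. The cut-off was set on ND, a group in the comparisons. Over all genes tested, 45.8% to 54.6% had a higher mean in these comparisons. Of the 46 with a lower level in ND, 24 had a lower mean in HSD than in ND, 31 in ND ICHD7 than in ND, 28 in HSD ICHD7 than in ND ICHD7, and 36 in HSD ICHD7 than in HSD. The 6 hosts of the 8 had a negative log2 fold change in 4 cases in HSD against ND, 2 in ND ICHD7 against ND, and 1 in each of the other comparisons. Snora64, within an exon of a transcript of Rps2 that retains an intron, had 74.1 ± 7.29 CPM in ND, 42.0 ± 10.4 in HSD, 26.9 ± 7.19 in ND ICHD7 and 12.02 ± 3.31 in HSD ICHD7 (SD, n = 3). Rps2 minus Snora64 was 439 ± 37.1, 422 ± 24.03, 389.8 ± 66.0 and 479.6 ± 29.9 CPM in the same order. Snora21, in an intron of Rpl23, fell from 79.9 ± 24.1 CPM in HSD to 25.1 ± 3.77 CPM in HSD ICHD7 (log2 fold change −1.62, adjusted p = 0.00431, limma), and Rpl23 had a log2 fold change of 0.20 (adjusted p = 0.369). Gm22270, in Rpl5, had 24.7 ± 1.10 CPM in ND and 12.7 ± 2.55 CPM in ND ICHD7 (−0.95, adjusted p = 8.24e-04, limma), and Rpl5 had 0.15 (adjusted p = 0.462). Neither of these hosts passed an unadjusted p under 0.05. The 29 host genes had a median log2 fold change of 0.07 in ND ICHD7 against ND and 0.25 in HSD ICHD7 against HSD, and the other 48 genes without paralogs had 0.11 and 0.20.

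Genes of the P stalk, the 5S particle and Diamond-Blackfan anemia mostly had a higher mean after ICH, as the family did. The P stalk genes Rplp0, Rplp1 and Rplp2 had log2 fold changes of 0.27, 0.54 and 0.28 in HSD ICHD7 against HSD, of which Rplp1 and Rplp2 had an unadjusted p under 0.05, and 0.09, 0.29 and 0.05 in ND ICHD7 against ND. Rpl5 and Rpl11, which with 5S ribosomal RNA bind Mdm2 and so stabilize p53, had 0.28 and 0.10 within HSD and 0.15 and 0.01 within ND, with no unadjusted p under 0.05. The 19 genes of Diamond-Blackfan anemia all had a higher mean in HSD ICHD7 than in HSD, 4 at an unadjusted p under 0.05, and 16 of 19 did in ND ICHD7 against ND, 1 at that p. Of all genes, 49.3% had a higher mean within HSD, 11.8% at that p, and 50.8% within ND, 18.1% at that p. Rps19, the most often affected of them in patients, had log2 fold changes from −0.02 to 0.06 over the 4 comparisons. Rps14, Rps27a and Rpsa had 0.15, 0.13 and 0.02 in ND ICHD7 against ND and −0.03, 0.12 and 0.04 in HSD ICHD7 against HSD, and Rps6, the substrate of S6 kinase, had −0.04 and 0.11. Rpl3, Rpl13a, Rpl41 and Rps4x had 0.12, 0.16, 0.19 and 0.02 in HSD ICHD7 against HSD, and none had an unadjusted p under 0.05 in any comparison.

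The large and small subunit genes had similar medians in each comparison. In ND ICHD7 against ND the medians were 0.10 and 0.10, in HSD ICHD7 against HSD 0.22 and 0.20, in HSD ICHD7 against ND ICHD7 0.10 and 0.10, and without ICH 0.01 and −0.04. Genes with a TOP tract at the annotated start (14) had medians of 0.11 and 0.23 after ICH within ND and HSD, and 43 genes with a window but no tract there had 0.05 and 0.21. Shorter transcripts had higher log2 fold changes after ICH within ND (Spearman −0.32 over 77 genes, with a median of 0.15 up to a length of 775 bases and 0.05 above it) and less so within HSD (−0.22).

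Genes outside the family were counted by the same fits. Of all genes, 54.6% had a higher mean in HSD against ND, 50.8% in ND ICHD7 against ND and 49.3% in HSD ICHD7 against HSD. At an unadjusted p under 0.05 in limma, 3.65%, 18.1% and 11.8% of all genes were higher in that order. Lower at that p were 3.28%, 10.3% and 9.73%. Of 19 translation factors with TOP messages, 18 had a higher mean in HSD ICHD7 than in HSD, 3 at an unadjusted p under 0.05 (median 0.18), and 9 of 19 did in ND ICHD7 against ND (median −0.001). Eef1a1, which brings aminoacyl-tRNA to the ribosome, had 3258 to 3553 CPM in ND and 3178 to 3667 CPM in HSD. It had 3191 to 3405 CPM in ND ICHD7 and 3362 to 4085 CPM in HSD ICHD7, and these ranges overlapped. Its log2 fold change was 0.12 in HSD ICHD7 against HSD and −0.03 in ND ICHD7 against ND (adjusted p = 0.748 and 0.927, limma). Of 77 mitochondrial ribosomal protein genes, 67 had a higher mean in HSD than in ND without ICH, 6 of them at an unadjusted p under 0.05 and none lower (median 0.12). Their difference from the cytosolic genes was not tested. Of 120 processed copies tested there, 16 were lower and 1 was higher at that p (median −0.11), and these copies share sequence with the members. Of 15 regulators of the family, 13 had a lower mean in ND ICHD7 than in ND, and 2 passed an adjusted p under 0.05, where 16.7% of all genes did. These were Tsc1 and Tsc2, which restrain mTOR (log2 fold changes −0.32 and −0.36, adjusted p = 0.0330 and 0.0166, limma), and Mtor itself and its partner Rptor had −0.20 and −0.28 (adjusted p = 0.178 and 0.0841, limma). Myc, which promotes transcription of ribosomal protein genes, had −0.21 and −0.22 after ICH within ND and HSD (adjusted p = 0.309 and 0.276, limma), and Larp1 had −0.09 and 0.09. Of 22 assembly factors tested, 20 had a higher mean in HSD than in ND without ICH, 1 at an unadjusted p under 0.05.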

How the data were processed

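HSPCs were profiled by RNA sequencing of total RNA in 12 libraries, 3 per group, and the groups follow the sample labels. The authors aligned the reads with Rsubread to mm10, counted them per gene with featureCounts and deposited CPM values scaled by TMM in edgeR 3.24.3. How strand and overlapping genes were treated in counting is not given in the sources used here. In each library 100% of values were whole multiples of 1 read within 0.01 read, so reads were recovered from the CPM.

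Genes reaching 10 reads in 3 or more compared libraries were tested on log2(CPM + 0.5) with limma 3.58.1 (R 4.3.3, mean-variance trend, two-sided), with Benjamini-Hochberg adjustment over all genes tested. Each comparison used its 6 libraries and the interaction all 12. The scripts were tested on simulated data. Fold changes on this scale understate the change of low genes. As nothing in the labels says that ICHD7 libraries came from separate animals, p-values measure the spread between libraries.

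Alternatives were edgeR 4.0.16, DESeq2 1.42.0, RLE scaling, plain CPM, other pseudocounts and filters, 1 fit of all 12 libraries, a replicate block, and libraries left out. Leaving out ND ICHD7 replicate 2 with HSD ICHD7 replicate 3 was chosen after seeing the data. The members, gene lists and tests were chosen with earlier results of these data known. Members were named if listed for their role, if among the 4 smallest p in a direction at an unadjusted p under 0.05, if among the 3 highest or lowest levels per kilobase in ND, or if not tested. Groups without overlap are stated for members with a small p, so the separation is not separate support. The share of all genes without overlap is not given here. Rpl10l and Rpl39l are not analysed here, and some results that the rule covers are not reported here. Transcripts and small nucleolar RNA genes are from GENCODE on GRCm38.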

Additional observations from a re-analysis of the deposited data

How the results depend on the processing

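No result changed direction past its threshold, and the summed levels and medians moved by less than the spread between libraries. Counts of members at an unadjusted p under 0.05, higher and lower together, did move. The share of all genes at that p moved too. For HSD ICHD7 against HSD, 6.20% to 10.7% of all genes were higher with 1 library left out, against 11.8%. For HSD against ND (4 genes) the count of members was 9 with RLE scaling or edgeR and 8 with plain CPM. It was 10 with DESeq2 and 1 with all 12 libraries in the fit. Of all genes, 2.06% to 3.48% were higher and 2.70% to 3.88% lower in these fits. For HSD ICHD7 against ND ICHD7 (2 genes) the count was 1 with the study's filter, 5 with DESeq2 and 9 with all 12 libraries. It was 0 to 11 when 1 library was left out. Beside these counts, 3.23% to 8.84% of all genes were higher and 3.94% to 13.3% lower. For ND ICHD7 against ND (7 genes) the count was 14 with plain CPM, 12 with edgeR, 18 with DESeq2 and 3 with all 12 libraries. With 1 library left out it was 3 to 31. Of all genes, 7.28% to 20.5% were higher and 5.78% to 11.5% lower in these fits. For HSD ICHD7 against HSD (18 genes) the count was 33 with plain CPM, 32 with DESeq2, and 7 to 34 with 1 library left out. Beside these counts, 6.20% to 13.1% of all genes were higher and 5.71% to 9.52% lower. In HSD ICHD7 against HSD the adjusted threshold was passed by 8 of 80 members with DESeq2 and 4 with all 12 libraries. It was passed by 2 with plain CPM or the replicate block, against 1 in the main fit. With the study's filter or any 1 library left out it was passed by 0. Of all 18082 genes, 1432 passed with DESeq2 and 2047 with all 12 libraries. With plain CPM and the replicate block, 1129 and 1081 did. With the study's filter 47 of 10084 genes passed, and 56 to 671 genes with 1 library left out. For the interaction (6 genes) the count at an unadjusted p under 0.05 was 0 without ND replicate 1 and HSD replicate 2. It was 0 to 10 with 1 library left out. Of all genes, 1.43% to 3.67% were higher and 3.99% to 9.17% lower in these fits. The cause was not tested.

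Replicate numbers did not pair the libraries (correlations from −0.191 to 0.0943). With the replicate block the counts were 3, 4, 10, 22 and 5 in the order above. Beside them, 2.59%, 5.10%, 18.3%, 12.2% and 2.08% of all genes were higher. Lower were 2.90%, 9.54%, 9.52%, 9.70% and 5.67%. With that block Rps3 in ND ICHD7 against ND had an adjusted p of 0.0937 (limma). Among the named genes, 353 values kept their side of the adjusted threshold under the alternatives, 19 lost it and 10 gained it. Most of the 353 belonged to genes not called in the main fit. Of the called genes, Rps15a in HSD ICHD7 against HSD kept an adjusted p under 0.05 in 8 of 16 alternatives. In ND ICHD7 against ND, Rps3 kept it in 8 of 16 and Rpl3l in 9 of 12.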
